A study of Mus musculus with 12 samples.

Results

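The genes described here encode the subunits of the mitochondrial oxidative phosphorylation system, with a few factors that assemble it. Members were the genes whose symbol began with Nduf, Uqcr, Cox4 to Cox8 or Atp5, or was Sdha, Sdhb, Sdhc or Sdhd, on a probe set carrying a single symbol. The 156 such probe sets represented 84 genes of the 12393 genes on the array, and where a gene had several, the probe set of highest mean level on the 12 arrays was used. They comprised 33 genes of complex I, 4 of complex II, 8 of complex III, 16 of complex IV, 17 of complex V and 6 assembly or supercomplex factors. Ndufa4 was counted with complex IV, where its protein is now placed.

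RNA of whole liver, rinsed in PBS, was hybridised to 12 Affymetrix 430A arrays, each carrying the pooled total RNA of 3 male mice labelled C57BL/6 and aged 6 to 8 weeks. The 4 groups held 3 arrays each: wild-type and POR-null mice, on the control diet or with quercetin. POR-null mice lack cytochrome P450 reductase, which passes electrons to microsomal cytochromes P450. The labels give neither the allele nor the tissues in which it is lost, and the Por gene itself was not analysed here. All groups first spent 14 days on the control diet, RM3 (E), a powdered chow free of soya. The quercetin groups, wild-type quercetin and POR-null quercetin, then received 6.2 g of this plant flavonol per kg of diet, 7 mg per mouse, for 24 h before the liver was collected. The comparisons asked whether the respiratory chain transcripts differed with loss of POR, with quercetin, and with both together.

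Oxidative phosphorylation couples the oxidation of NADH and succinate to ATP synthesis in the inner mitochondrial membrane. Complex I (NADH dehydrogenase) and complex II (succinate dehydrogenase) pass electrons to ubiquinone, complex III hands them on to cytochrome c and complex IV (cytochrome c oxidase) to oxygen. Complexes I, III and IV pump protons, and complex V, the ATP synthase, uses the gradient. The nuclear genes studied here are joined by core subunits made from mitochondrial DNA. Several complex IV subunits have a form used in most tissues and another used mainly in heart and skeletal muscle. Hepatocytes are rich in mitochondria and use this system to power urea synthesis and gluconeogenesis.

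Promoters of the RefSeq annotation (GRCm38.p6) were found for 70 of the 84 members and read from 250 bases before to 50 bases after the transcription start. The letters GCGCANGCG, resembling the site of NRF1, a regulator of respiratory chain genes, occurred on either strand in the windows of 19 of 70 members (27.1%) and of 7.03% of all 27025 genes. CCGGAAG, an ETS-type sequence bound by factors such as GABP, occurred in 25.7% of members and 9.93% of all genes. AAGATGGCG, of YY1 type, occurred in 8.57% and 1.64%, and TCAAGGTCA, of ERR type, in 2.86% and 0.466%. CCGGAAG and AAGATGGCG can share the letters AAG, and a match is a description of the sequence. NRF1-type letters were present for 7 of 15 complex V genes and 5 of 30 complex I genes. Of the 7 members that passed the test between genotypes, 6 had a promoter, and NRF1-type letters occurred in 3 of these. The upstream bases of those 3 are given with capitals on the NRF1-type letters, together with Atp5pb, which held none of the 4 patterns and had the largest control-diet difference. They are Ndufaf4 at chr4:24897833-24898082 (plus strand), Ndufa5 at chr6:24527691-24527940 (minus), Atp5k at chr5:108434400-108434649 (minus) and Atp5pb at chr3:105959264-105959513 (minus).
Ndufaf4: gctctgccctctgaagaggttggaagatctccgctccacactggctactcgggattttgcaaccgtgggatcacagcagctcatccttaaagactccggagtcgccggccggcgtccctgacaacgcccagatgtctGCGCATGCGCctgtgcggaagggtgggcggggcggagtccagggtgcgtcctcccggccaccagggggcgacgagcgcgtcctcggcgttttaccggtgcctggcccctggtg
Ndufa5: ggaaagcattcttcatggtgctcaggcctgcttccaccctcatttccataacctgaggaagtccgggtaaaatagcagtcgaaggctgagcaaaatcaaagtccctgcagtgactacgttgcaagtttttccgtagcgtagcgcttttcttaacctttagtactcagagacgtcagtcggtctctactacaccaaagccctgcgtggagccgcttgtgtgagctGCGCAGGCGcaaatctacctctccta
Atp5k: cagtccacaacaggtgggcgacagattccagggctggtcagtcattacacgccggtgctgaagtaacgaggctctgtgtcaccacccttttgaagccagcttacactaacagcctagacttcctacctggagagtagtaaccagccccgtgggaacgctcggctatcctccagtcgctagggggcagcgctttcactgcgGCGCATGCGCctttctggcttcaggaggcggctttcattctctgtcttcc
Atp5pb: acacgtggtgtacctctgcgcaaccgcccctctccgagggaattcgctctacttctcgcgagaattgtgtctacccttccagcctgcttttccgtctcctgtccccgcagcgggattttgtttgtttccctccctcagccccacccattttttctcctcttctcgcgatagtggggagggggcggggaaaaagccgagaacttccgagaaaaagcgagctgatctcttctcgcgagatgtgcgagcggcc
In Ndufaf4 and Atp5k the capitals form a palindrome that matches on both strands, while in Ndufa5 they match on 1 strand.

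Expression values are on the log2 scale, so that a difference of 1 is a doubling. The array medians of all probe sets lay between 5.93 and 5.99. Members were measured well above this: 67 of 84 had a mean of 9 or more, 7 had a mean below the median of all values (5.96), and their median within-group SD was 0.09, against 0.14 over all genes. Hepatocyte markers were abundant, with means of 12.4 to 13.6 for the 6 measured of 8. Over all probe sets the genotypes parted on principal component 1 (33.0% of the variance), where POR-null control array 3 was the nearest to wild type. Component 2 (12.4%) parted array 1 of wild-type control from the group's other arrays. The SD of the values within an array ranged from 1.76 to 1.82 in wild type and from 1.79 to 1.84 in POR-null. Quantile normalization gives all arrays 1 distribution, and its values stand beside the group medians it moves. Exocrine pancreas markers averaged 2.35 above their 12-array mean on POR-null quercetin array 3, 1.20 on wild-type control array 2 and 0.86 on POR-null control array 3.

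Averaged over both diets, 7 of 84 members rose and 0 fell (limma, adjusted p under 0.05), beside 5.08% of all genes higher and 2.86% lower. The 7 were Ndufs1, Ndufa5, Ndufa10 and Ndufab1 of complex I, Atp5pb and Atp5k of complex V and the assembly factor Ndufaf4. Their increases were 1.16-fold to 1.34-fold. Of the members, 56 lay above 0 with a median log2 difference of 0.05 (all genes, -0.023), and this median turned to -0.017 with quantile normalization, where 34 members lay above 0. Genes as abundant as most members, the 1025 with a mean of 9 or more, had a median of 0.05 and 62.6% above 0, against 68.7% of the 67 members in that range. This range was chosen after the values were seen. In it 5 members (7.46%) were called higher, as were 152 of the 1025 genes (14.8%). Over all genes the calls split into 630 higher and 354 lower, and into 512 and 438 after quantile normalization. With quantile normalization 4 members were called, of which Ndufs1 and Ndufaf4 rose and Ndufb9 (-0.17) and Ndufb11 (-0.19), both membrane-arm subunits named after their values were seen, fell. In bulk tissue fewer cells of a type and less RNA per cell cannot be told apart. Some markers of other cell types also differed by genotype, given here as a list's mean log2 level on an array relative to each gene's mean over all arrays. For the 4 measured adipocyte markers, of 6 listed and all with means below the median of all values, it was -0.31 to -0.07 on wild-type arrays and -0.02 to 0.25 on POR-null arrays, with 1 of 4 called higher and a median difference of 0.04. For 6 measured lymphocyte markers, of 7 listed, it was -0.02 to 0.18 on wild-type and -0.14 to -0.0036 on POR-null arrays, which overlapped, with 1 of 6 called lower and a median of -0.14. Of 8 macrophage markers 1 was called higher, with a median of 0.25. Their level was -0.35 to 0.46 on wild-type arrays and -0.07 to 0.16 on POR-null arrays, which overlapped. The highest value was that of wild-type quercetin array 3. For the 6 measured hepatocyte markers the level was 0.05 to 0.10 in wild-type quercetin and -0.14 to -0.0073 in POR-null quercetin, without overlap. On the control diet it was -0.03 to 0.03 in wild type and -0.10 to 0.03 in POR-null, which overlapped. The part of these cell types in the members' values was not tested.

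The count depended on single arrays. Without wild-type control array 2 it was 3. It was 3, 2 and 4 without wild-type quercetin arrays 1, 2 and 3. Leaving out POR-null control array 1 or 2 gave 2 or 4, and leaving out POR-null quercetin array 1, 2 or 3 gave 3, 4 or 4. With array 1 of wild-type control left out, or array 3 of POR-null control, 9 members passed. Ndufs1 passed in all 12 of these fits, Atp5pb in 11, Ndufab1 in 7, Atp5k in 6, Ndufaf4 in 4, Ndufa10 in 3 and Ndufa5 in 2. The sizes ranged from 0.32 to 0.38 for Ndufs1, 0.27 to 0.37 for Atp5pb, 0.21 to 0.27 for Ndufab1 and 0.20 to 0.26 for Ndufa5. They ranged from 0.19 to 0.24 for Ndufa10, 0.19 to 0.23 for Atp5k and, most widely, 0.33 to 0.49 for Ndufaf4. Ndufa5 kept its call in the fits lacking array 2 of wild-type control and array 3 of POR-null control, and Ndufa10 in those lacking array 3 of wild-type control, of POR-null control and of POR-null quercetin. Atp5k lost its call in the fits lacking array 2 of wild-type control, arrays 1 and 2 of wild-type quercetin, array 1 of POR-null control and arrays 1 and 2 of POR-null quercetin. Ndufab1 lost its own in those lacking array 2 of wild-type control, arrays 1 and 2 of wild-type quercetin, array 1 of POR-null control and array 3 of POR-null quercetin. Ndufaf4 kept its call without array 1 of wild-type control, wild-type quercetin or POR-null control, or array 2 of POR-null quercetin.

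**Figure D1:**
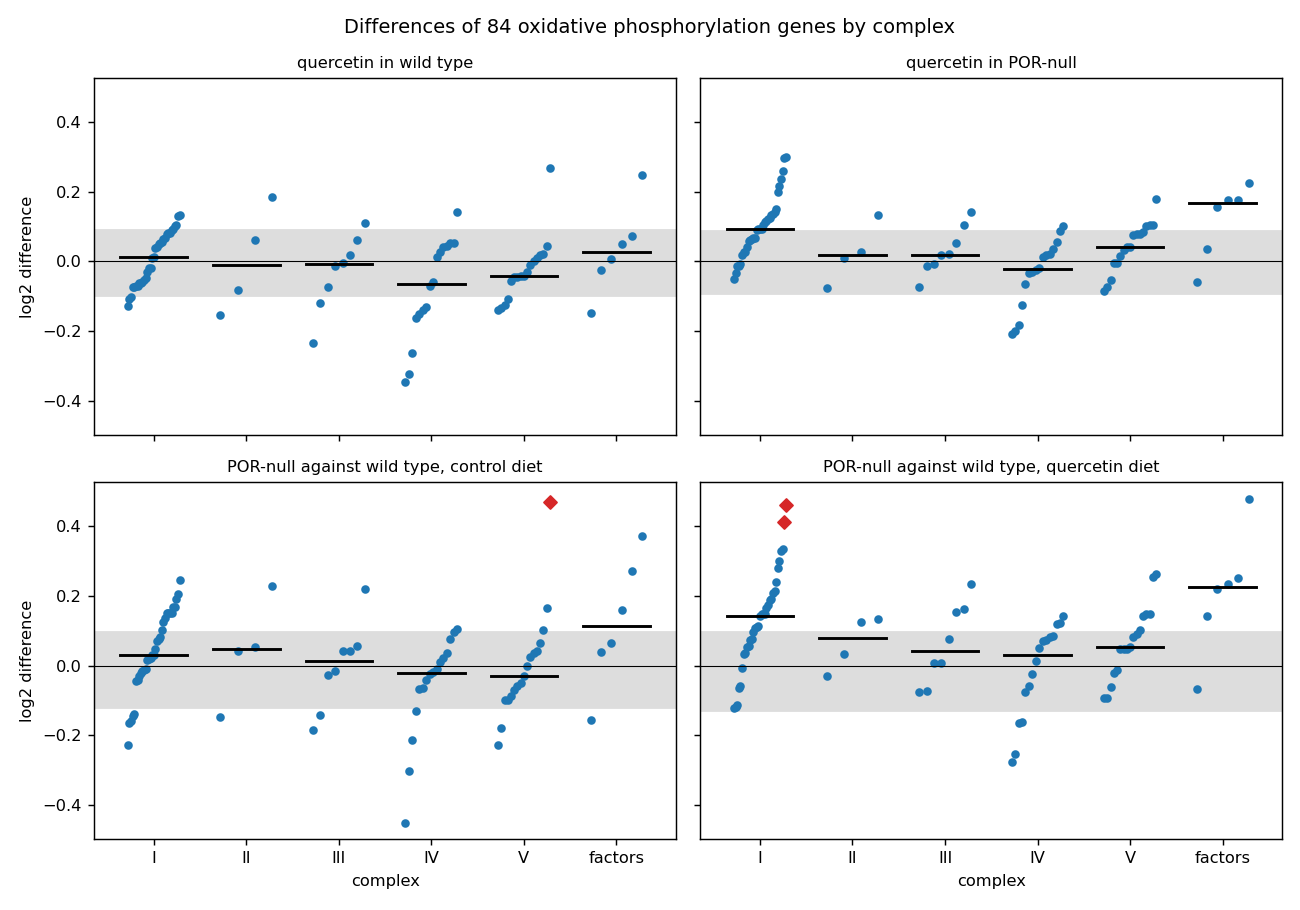
Log2 difference (y axis) of each of the 84 genes, as deposited, by complex (x axis) in 4 comparisons. Bars are medians, the grey band runs from the lower to the upper quartile of all genes, and red diamonds are the 3 values with adjusted p under 0.05. The complex I median is highest for POR-null against wild type on the quercetin diet (0.14), but 0.014 after quantile normalization.

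Complex I held the most stable call. Ndufs1 encodes the large iron-sulfur subunit of the NADH-oxidising arm. Its log2 values were 8.94, 8.90 and 8.74 on the wild-type control arrays and 8.93, 8.82 and 9.07 on the wild-type quercetin arrays. They were 9.15, 9.17 and 8.99 on the POR-null control arrays and 9.46, 9.40 and 9.34 on the POR-null quercetin arrays. The genotypes did not overlap on either diet, and the POR-null quercetin arrays were the highest of all. Averaged over diets it rose by 0.35 ± 0.07 (SE; limma, adjusted p = 0.00536), or 1.28-fold. On the quercetin diet the increase was 0.46 ± 0.09 (limma, adjusted p = 0.0191), and on the control diet the difference was 0.24 (limma, adjusted p = 0.218). It was the 1 member called in each genotype fit averaged over diets that left out an array, and it kept its call after quantile normalization (0.28, limma, adjusted p = 0.0111). Its call on the quercetin diet alone was lost without either of wild-type quercetin arrays 1 and 2 or POR-null quercetin arrays 1 and 2 (differences 0.45, 0.40, 0.43 and 0.46).

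Ndufab1, the mitochondrial acyl carrier protein that also serves fatty acid and lipoate synthesis, had mean log2 values of 9.16 ± 0.09 and 9.13 ± 0.05 in wild-type control and quercetin livers (SD, n = 3). In POR-null livers the means were 9.25 ± 0.04 on the control diet and 9.55 ± 0.12 with quercetin. The POR-null quercetin arrays (9.44, 9.52 and 9.67) lay above all 9 others. The increase was 0.41 ± 0.09 on the quercetin diet (limma, adjusted p = 0.0218) and 0.25 ± 0.06 averaged over diets (limma, adjusted p = 0.0236). Neither call held after quantile normalization (0.30 and 0.16), and the gene's 2 other probe sets, of low level (means 5.81 and 3.88), gave 0.08 and -0.08 averaged over diets. The quercetin-diet call was also lost without any 1 of wild-type quercetin arrays 1 and 2 and the 3 POR-null quercetin arrays (0.35 to 0.46).

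Ndufa5 lies in the arm that reduces ubiquinone. Its values were 7.92, 8.15 and 7.98 in wild-type control, 8.04, 8.13 and 8.09 in wild-type quercetin, 8.11, 8.26 and 8.10 in POR-null control and 8.33, 8.38 and 8.53 in POR-null quercetin. The genotypes overlapped on the control diet and were apart on the quercetin diet. It rose by 0.23 ± 0.07 averaged over diets (limma, adjusted p = 0.0453), and its second probe set gave 0.30 (limma, adjusted p = 0.0502). After quantile normalization the first was 0.18 (limma, adjusted p = 0.0956). Ndufa10, a membrane-arm subunit, had wild-type values from 9.74 to 9.98 and POR-null values from 10.03 to 10.18, without overlap. Its increase was 0.21 ± 0.06 (limma, adjusted p = 0.0351) and 0.12 after quantile normalization (limma, adjusted p = 0.251). A second probe set of lower level (mean 6.37) gave -0.04.

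**Figure D2:**
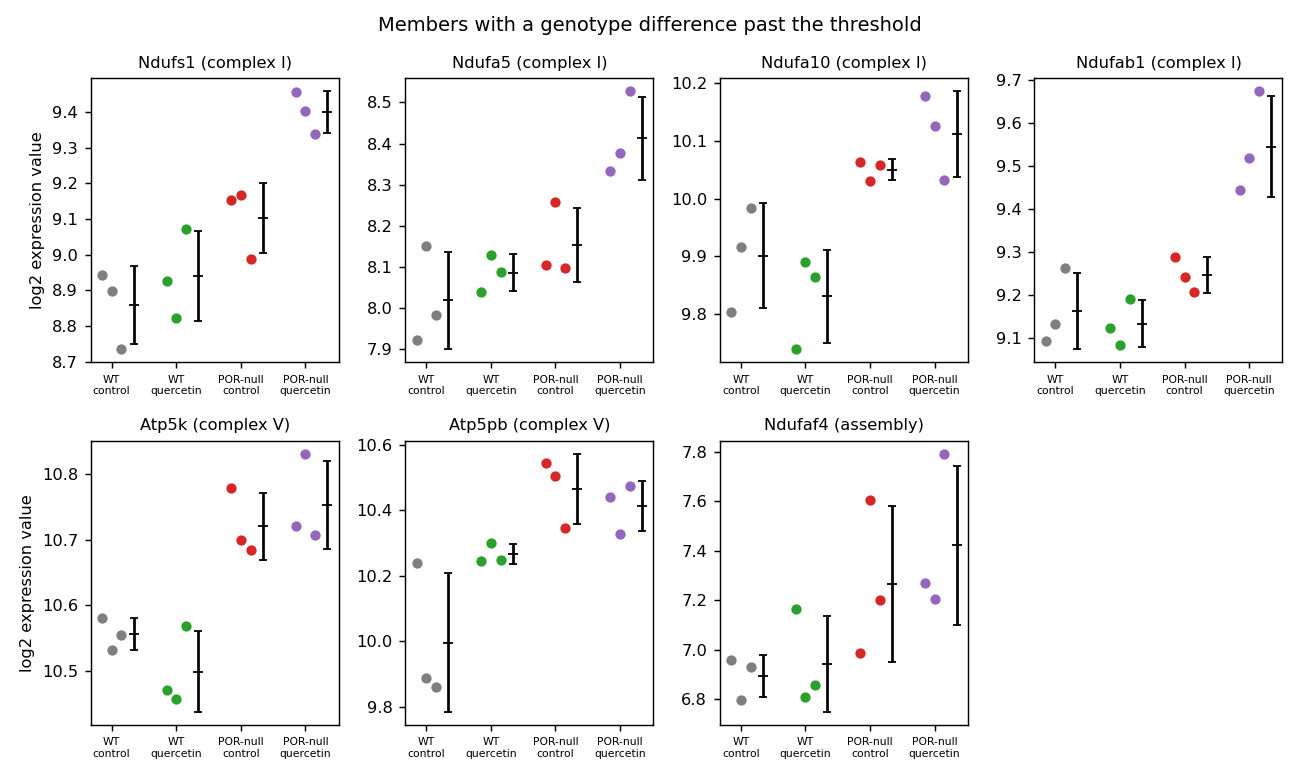
Log2 expression value (y axis) on every array for the 7 genes that passed between genotypes averaged over diets, by group (x axis). Points are arrays, each a pool of 3 mice, and bars are mean ± SD (n = 3). For Ndufs1 the POR-null quercetin arrays (9.34 to 9.46) are above all others. With quantile normalization Ndufs1 and Ndufaf4 kept their calls and the other 5 genes lost theirs.

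The remaining complex I genes were not among those called above, though not all had smaller differences. Ndufc2, a membrane-arm subunit, differed by 0.23 averaged over diets (limma, adjusted p = 0.0701), and its second probe set by 0.13. With array weights the first passed (0.23, limma, adjusted p = 0.0436). It also passed in fits lacking POR-null control array 3 (0.26) or the first wild-type control array (0.27). The latter fit also called Ndufv2 (0.21) and Ndufa6 (0.24). These genes were named after their values were seen. Ndufv1, which binds NADH and flavin beside Ndufs1, had means of 9.71, 9.61, 9.56 and 9.72 in wild-type control, wild-type quercetin, POR-null control and POR-null quercetin. Its difference averaged over diets was -0.02 (limma, adjusted p = 0.891). Ndufa8, a membrane-arm subunit, differed by -0.01 on the control diet and by 0.33 on the quercetin diet (limma, adjusted p = 0.0577). All POR-null quercetin values of Ndufa8 (10.20, 10.12 and 10.06) lay above the wild-type quercetin values (9.83, 9.72 and 9.83). The quercetin-diet difference of Ndufa8 passed without wild-type control array 1 or without array 3 of POR-null control (0.33 in both, limma, adjusted p = 0.045 and 0.0424). It also passed with the filter on low values, array weights, only the groups compared and the mean of probe sets, at adjusted p by limma of 0.0269 to 0.0496, and after quantile normalization it was 0.23 (limma, adjusted p = 0.209). In complex I as a whole 25 of 33 genes lay above 0 averaged over diets, with a median of 0.11, and 18 did so after quantile normalization, with a median of 0.0073. By arm the medians were 0.11 for the 7 genes of the NADH module (4 above 0), 0.14 for the 7 of the quinone module (7 above 0) and 0.11 for the 19 of the membrane arm (14 above 0).

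On the quercetin diet complex I stood higher in POR-null liver, but this depended on the scaling of the arrays. In 18 of 33 genes all POR-null quercetin arrays exceeded all wild-type quercetin arrays and in 4 they were all lower, where 12.2% of all genes were higher and 13.5% lower without overlap. After quantile normalization these counts were 10 and 6. Over the 84 members they were 27 and 5, and 15 and 15 after quantile normalization. By the test 2 members rose and 0 fell on this diet, namely Ndufs1 and Ndufab1, beside 1.86% and 0.629% of all genes. No member was called when any 1 of wild-type quercetin arrays 1 and 2 or POR-null quercetin arrays 1 and 2 was left out, and 1 was called without POR-null quercetin array 3. All genes called on this diet split into 231 higher and 78 lower, and into 185 and 104 after quantile normalization. At an unadjusted p under 0.05 there were 14 members higher and 1 lower (17.6% of all genes in either direction). The median over complex I was 0.14, and 0.014 after quantile normalization. Of the genes with a mean of 9 or more, 28.9% were higher without overlap on this diet, as were 32.8% of the 67 members in that range.

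On the control diet 1 member rose and 0 fell, with 0.92% of all genes higher and 0.323% lower. Without overlap, 11 members were higher and 8 lower (8.25% and 9.55% of all genes). At an unadjusted p under 0.05 the counts were 8 and 6 (15.8% of all genes in either direction), and averaged over diets they were 21 and 4 (23.6%). The median of the members on the control diet was 0.02, and -0.054 after quantile normalization. The member that rose was Atp5pb, which encodes the b subunit of the peripheral stalk that holds the head of the ATP synthase in place. Its values were 10.24, 9.89 and 9.86 in wild-type control and 10.54, 10.51 and 10.34 in POR-null control. They were 10.25, 10.30 and 10.25 in wild-type quercetin and 10.44, 10.33 and 10.47 in POR-null quercetin. The genotypes did not overlap on either diet, and wild-type control array 1 lay near the wild-type quercetin arrays, above its own group's arrays 2 and 3.

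The control-diet increase of Atp5pb was 0.47 ± 0.10 (limma, adjusted p = 0.045). It kept this call when array 1 of wild-type control or array 3 of POR-null control was left out. It lost it without any 1 of the other 10 arrays, with differences of 0.40 to 0.47 and adjusted p by limma of up to 0.208. The quercetin arrays among these enter only the shared estimate of spread. Without any 1 of them the difference stayed at 0.47, with adjusted p by limma of 0.059 to 0.064. Averaged over diets Atp5pb rose by 0.31 ± 0.07 (limma, adjusted p = 0.0183). This call was lost by a small margin without POR-null control array 1 (0.29, limma, adjusted p = 0.0503). After quantile normalization the difference was 0.20 (limma, adjusted p = 0.107). The gene's second probe set gave 0.16 on the control diet (limma, adjusted p = 0.439) and 0.20 averaged over diets (limma, adjusted p = 0.0896). Without wild-type control array 1, 2 members passed on the control diet, the other being Cox8b, which was lower by then (-0.56).

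In complex V the other call was Atp5k, the e subunit of the membrane part, which links ATP synthase dimers. Its wild-type values ranged from 10.46 to 10.58 and its POR-null values from 10.68 to 10.83, with no overlap. It rose by 0.21 ± 0.05 averaged over diets (limma, adjusted p = 0.0265), and its 2 other probe sets rose by 0.31 and 0.23. After quantile normalization the first gave 0.11 (limma, adjusted p = 0.235). Atp5b, the catalytic beta subunit, had means of 11.72, 11.74, 11.82 and 11.82 in wild-type control, wild-type quercetin, POR-null control and POR-null quercetin, and a difference of 0.09 (limma, adjusted p = 0.338). Over the 17 genes of complex V 9 lay above 0 with a median of 0.01, which was -0.10 after quantile normalization.

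Complexes II and III held no call. Sdha, the flavin-bearing catalytic subunit of succinate dehydrogenase, had means of 10.21 ± 0.05, 10.13 ± 0.14, 10.25 ± 0.05 and 10.26 ± 0.13 in wild-type control, wild-type quercetin, POR-null control and POR-null quercetin (SD, n = 3). Sdhb, its iron-sulfur partner, had means of 10.71 ± 0.04, 10.77 ± 0.09, 10.76 ± 0.09 and 10.90 ± 0.11. Both differed by 0.09 between genotypes averaged over diets (limma, adjusted p = 0.458 and 0.409). For Sdha all groups overlapped, while for Sdhb the wild-type control arrays (highest 10.76) lay below the POR-null quercetin arrays (lowest 10.83) and the other pairs of groups overlapped. The median of the 4 complex II genes was 0.09, and -0.022 after quantile normalization.

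Uqcrfs1, the Rieske iron-sulfur protein of complex III, had values of 10.32, 10.41 and 10.40 in wild-type control and 10.64, 10.64 and 10.50 in POR-null control, which did not overlap. With quercetin the values were 10.40, 10.50 and 10.56 in wild type and 10.73, 10.51 and 10.70 in POR-null, and these overlapped. The difference averaged over diets was 0.19 ± 0.06 (limma, adjusted p = 0.0703). Leaving out POR-null control array 3 took it past the threshold (0.21, limma, adjusted p = 0.049). The filter on low values did so too (0.19, limma, adjusted p = 0.0494), and after quantile normalization it was 0.09 (limma, adjusted p = 0.371). Uqcrc1, a core protein, differed by -0.03 on the control diet and 0.23 on the quercetin diet (limma, adjusted p = 0.898 and 0.112). The median of the 8 complex III genes was 0.01, and -0.070 after quantile normalization.

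Among the 6 factors the one call was Ndufaf4, which assembles complex I. Its values were 6.96, 6.80 and 6.93 in wild-type control and 7.17, 6.81 and 6.86 in wild-type quercetin. They were 6.99, 7.61 and 7.20 in POR-null control and 7.27, 7.21 and 7.79 in POR-null quercetin. The genotypes did not overlap on either diet, though the spread among POR-null arrays was wide. It rose by 0.42 ± 0.12 (limma, adjusted p = 0.0443), and by 0.42 after quantile normalization (limma, adjusted p = 0.0473). A second probe set gave 0.34 (limma, adjusted p = 0.0849). Ndufaf7, which methylates a complex I subunit, differed by 0.26 (limma, adjusted p = 0.0796), and Cox7a2l, which joins complexes III and IV, by 0.15 (limma, adjusted p = 0.125). The median of the 6 was 0.17 (5 above 0), and 0.14 after quantile normalization.

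Complex IV had no call in any comparison with all 12 arrays weighted equally and no replicate block. The 10 subunits of general use had a genotype median averaged over diets of 0.04 (9 above 0), which was -0.0082 after quantile normalization. The 6 tissue-restricted isoforms had a median of -0.15 (5 below 0), and -0.17 after quantile normalization. Cox4i1, the general form of subunit 4, had means of 11.37 ± 0.05, 11.38 ± 0.07, 11.36 ± 0.13 and 11.39 ± 0.03 in wild-type control, wild-type quercetin, POR-null control and POR-null quercetin (SD, n = 3), and all groups overlapped. Cox8b, the heart and muscle form of subunit 8, had values of 5.92, 6.13 and 6.40 in wild-type control, 5.69, 5.93 and 5.87 in wild-type quercetin, 5.45, 5.73 and 5.93 in POR-null control and 5.66, 5.66 and 5.69 in POR-null quercetin. Wild-type control array 3 was the highest, and the control-diet genotypes overlapped. Its difference averaged over diets was -0.30 ± 0.10 (limma, adjusted p = 0.0702). Leaving out wild-type control array 1 gave -0.36 (limma, adjusted p = 0.0298), and leaving out POR-null control array 3 gave -0.36 (limma, adjusted p = 0.0314), both past the threshold. With array weights it was -0.32 (limma, adjusted p = 0.0375).

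Cox7a1 and Cox6a2, the muscle forms of subunits 7a and 6a, differed by -0.23 and -0.14 between genotypes (limma, adjusted p = 0.176 and 0.257). Cox6a2 stood at 6.40, 6.39 and 6.40 in wild-type control and between 5.97 and 6.32 on the other 9 arrays, so that wild-type control did not overlap any other group. Cox7a1 stood between 4.20 and 4.49 in wild-type control and between 3.56 and 4.22 elsewhere, with overlap. The means of Cox8b and Cox7a1 were below the median of all values and that of Cox6a2 just above it. Of the 10 skeletal muscle and heart markers 8 lay below 0 between genotypes averaged over diets, with a median of -0.16 and 0 calls. Their mean level, relative to the 12 arrays, ranged from 0.01 to 0.41 in wild-type control and -0.17 to 0.14 in wild-type quercetin. In POR-null it ranged from -0.28 to 0.11 on the control diet and -0.14 to -0.0048 with quercetin. On wild-type control array 2 this level was 0.01, below wild-type quercetin array 2 (0.14) and POR-null control array 3 (0.11). Cox6a2, Cox7a1 and Cox8b were nevertheless higher on wild-type control array 2 than on either. Of these markers 7 had means below the median of all values. Their part in the isoforms' values was not tested.

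**Figure D3:**
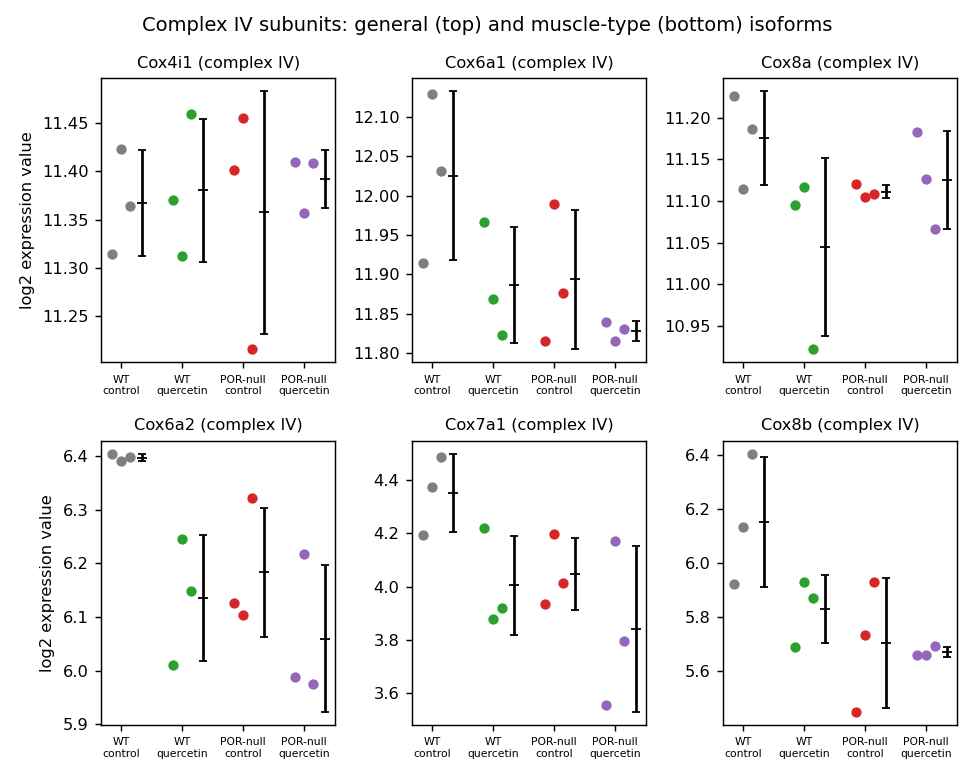
Log2 expression value (y axis) on every array for 3 general (top) and 3 muscle-type (bottom) subunits of complex IV, by group (x axis). Points are arrays and bars are mean ± SD (n = 3). Cox6a2 lies at 6.39 to 6.40 in wild-type control and lower on the other 9 arrays, while Cox4i1 overlaps in all groups. None of the 6 genes passed the test in any comparison with all 12 arrays weighted equally and no replicate block.

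No member passed the test for quercetin in either genotype. In wild type 0 members passed, as did 0% of all genes. At an unadjusted p under 0.05 limma gave 1 member higher and 4 lower, 5.95% of the 84 beside 8.67% of all genes. Without overlap 2 members were higher and 5 lower (5.67% and 6.23% of all genes). The median of the members was -0.01, that of all genes -0.0047 and that of genes with a mean of 9 or more 0.03. Cox7a1 (-0.34 ± 0.14) and Cox8b (-0.32 ± 0.14), the muscle isoforms, had the lowest differences, and Atp5pb the highest (0.27 ± 0.10), with adjusted p by limma of 0.543, 0.556 and 0.509. Uqcr11, a small subunit of complex III, stood at 10.32, 10.39 and 10.33 on the control diet and at 9.99, 10.25 and 10.10 with quercetin. The groups did not overlap, and the difference was -0.23 ± 0.09 (limma, adjusted p = 0.5).

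In POR-null liver 0 members and 0% of all genes passed with quercetin. At an unadjusted p under 0.05 limma gave 5 members higher and 0 lower, 5.95% of the 84, beside 6.85% of all genes. Without overlap 18 members were higher and 3 lower, against 6.83% and 7.62% of all genes, and after quantile normalization 8 and 5. Complex I gave 12 of the 18, with 28 of 33 genes above 0 and a median of 0.09, and after quantile normalization 5 were higher without overlap, 25 lay above 0 and the median was 0.037. The largest differences were those of Ndufab1 and Ndufs1 (both 0.30) with Ndufa5 (0.26) and Ndufa8 (0.23), at adjusted p by limma from 0.607 to 0.651. Among genes with a mean of 9 or more, 12.2% were higher without overlap, as were 23.9% of the 67 members in that range. Exocrine pancreas markers were above 0 in 7 of 7 cases in this comparison, with a median of 0.67 and 0 calls, and their part in the members' values was not tested. Averaged over genotypes 0 members passed (0% of all genes), and at an unadjusted p under 0.05 limma gave 5 higher and 2 lower (9.66% of all genes), with a median of 0.02, which was -0.021 after quantile normalization.

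The per-array medians placed this pattern. After each gene's mean over the 12 arrays was subtracted, the median of complex I was 0.10, 0.08 and 0.09 on the POR-null quercetin arrays. It ranged from -0.05 to -0.0073 in wild-type control, -0.11 to 0.01 in wild-type quercetin and -0.06 to 0.02 in POR-null control. The POR-null quercetin arrays were thus above the other 9 for complex I, and they overlapped other groups for complexes II, III, IV and V. They were also above the other 9 for the 6 factors (0.10 to 0.15, highest other array 0.06) and for all 84 members (0.04 to 0.07, highest other array 0.03). The same held for the mean of the 74 mitochondrial ribosomal protein genes (0.08 to 0.12, highest other array 0.02). The medians of all genes were -0.02 to -0.0024 on the POR-null quercetin arrays, and overlapped those of the other 9 arrays (-0.02 to 0.03).

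**Figure D4:**
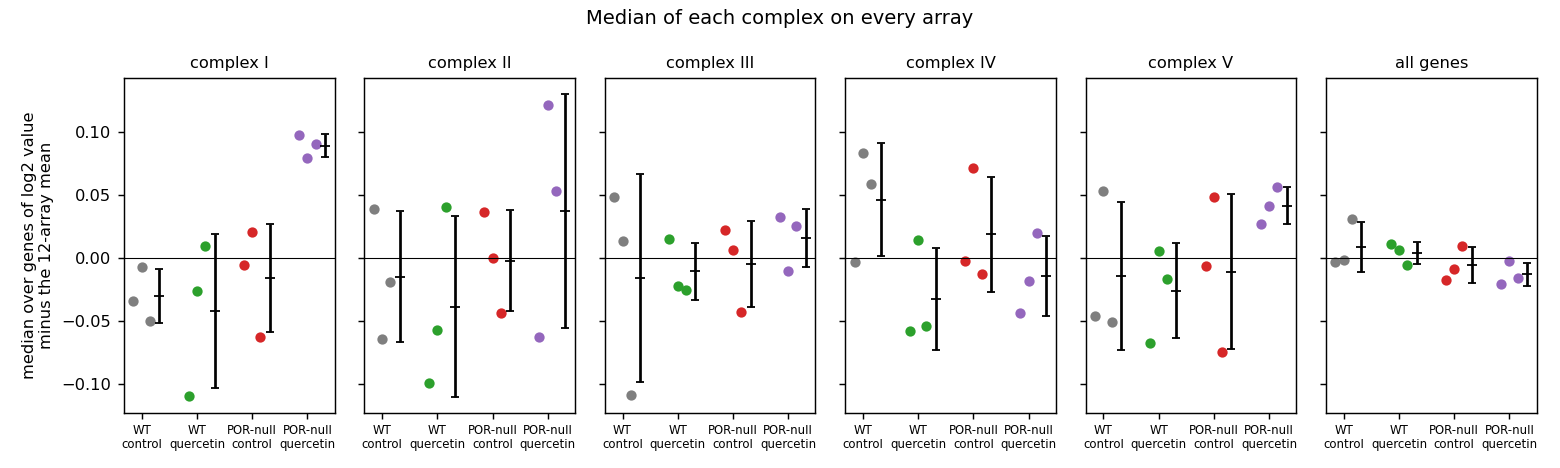
Median over the genes of a complex of each gene's log2 value minus its mean on the 12 arrays (y axis), per array and group (x axis), with deposited values. Points are arrays and bars are mean ± SD (n = 3). For complex I the POR-null quercetin arrays lie at 0.08 to 0.10, above the other 9; after quantile normalization the complex I median of that group over wild-type quercetin fell to 0.014.

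The interaction asked whether quercetin acted differently in the 2 genotypes. No member passed (0 of 84, and 0% of all genes), and at an unadjusted p under 0.05 limma gave 4 higher and 1 lower (5.96% of all genes). Of the members 65 lay above 0, meaning a more positive quercetin difference in POR-null, with a median of 0.09, against 0.0007 over all genes and 0.01 over genes with a mean of 9 or more. Quantile normalization left 62 above 0 with a median of 0.07. All complexes had medians above 0 with both scalings: 0.09 for complex I, 0.08 for II, 0.03 for III, 0.06 for IV and 0.09 for V as deposited. Complex III turned to -0.030 when wild-type control array 1 was left out. The largest were Ndufa8 (0.34), Uqcr11 (0.34), and Ndufab1 (0.33), each at an adjusted p by limma of 0.803, and the lowest was Atp5pb (-0.32, also at 0.803). The 95% confidence interval of a member's interaction had a median half-width of 0.26, and for 71 of 84 members it lay within ±0.5.

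Confidence intervals were narrow for most members. For a comparison of a pair of groups the half-width of a member's 95% confidence interval had a median of 0.18. It lay wholly within ±0.5 log2 units for 81 members for quercetin in wild type, 81 for quercetin in POR-null, 79 for genotype on the control diet and 76 on the quercetin diet. Averaged over diets 82 of 84 genotype intervals did so, where 91.0% of all genes did.

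Of 20 measured genes of the tricarboxylic acid cycle and pyruvate dehydrogenase, which feed the respiratory chain, 11 rose and 0 fell in POR-null averaged over diets, beside 5.08% of all genes higher and 2.86% lower. Their median was 0.30; after quantile normalization 8 rose, 1 fell and the median was 0.28. Idh3a, a subunit of NAD-dependent isocitrate dehydrogenase, rose by 0.70 and Idh2, its NADP-dependent mitochondrial counterpart, by 0.65 (limma, adjusted p = 0.00124 and 0.00142). Dlst, of the oxoglutarate dehydrogenase complex, rose by 0.46 and Pdk2, a kinase that inhibits pyruvate dehydrogenase, by 0.64 (limma, adjusted p = 0.00219 and 0.000471). The difference between this list and the subunits was not tested, nor was the part of the adipocyte and lymphocyte markers described above.

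The following counts stand beside the same shares of all genes (5.08% higher, 2.86% lower). Of 30 measured assembly factors outside the name rule 7 rose and 0 fell, with a median of 0.10 (0.08 after quantile normalization). They included Coa6 (0.64) and Cox17 (0.37), which handle copper for complex IV, Sdhaf4 (0.49), which assembles succinate dehydrogenase, and Acad9 (0.44), which assembles complex I; adjusted p by limma were 0.0048, 0.0028, 0.00342 and 0.00326. Of 19 electron carriers and coenzyme Q genes 3 rose, namely the ubiquinone synthesis genes Coq7 (0.35), Coq5 (0.40) and Coq9 (0.24), with a median of 0.06. Of 20 regulators of mitochondrial biogenesis 3 rose and 1 fell. Tefm (0.52) and Tfb2m (0.25) serve mitochondrial transcription and Lrpprc (0.31) stabilises mitochondrial mRNA, while the transcription factor Yy1 fell by 0.28. Ribosomal protein genes were called at about the share of all genes, with 5 of 74 mitochondrial ones higher (median 0.07) and 2 of 48 cytosolic ones higher (median 0.06, and -0.0060 after quantile normalization). With quercetin in POR-null, 67 of the 74 mitochondrial ribosomal genes lay above 0 (median 0.13, 0 calls).

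**Figure D5:**
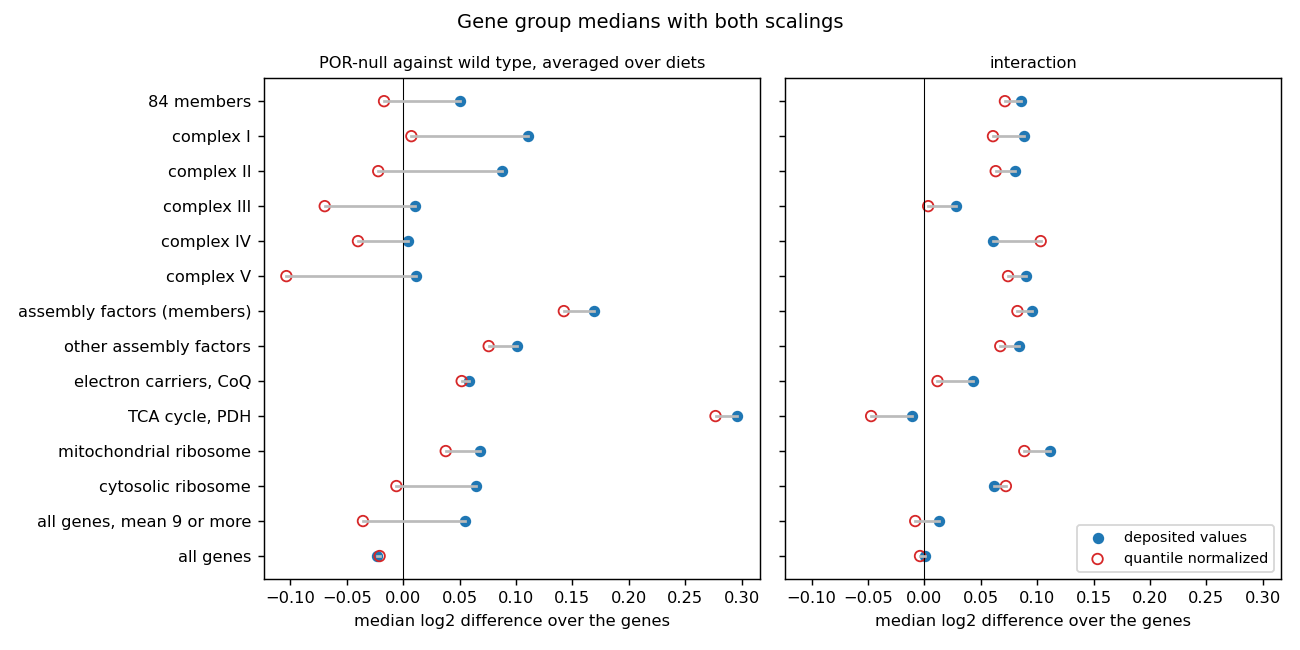
Median log2 difference over the genes of each group (x axis) with deposited (filled) and quantile-normalized values (open), for genotype averaged over diets (left) and the interaction (right). The median of the 84 members moves from 0.05 to -0.017 on the left and from 0.09 to 0.07 on the right, while the tricarboxylic acid cycle list stays near 0.30 and 0.28 on the left.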

How the data were processed

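The deposited table holds log2 expression values, 1 column per array; MAS5 and RMA appear in the submitters' processing notes with no role or version, and which of them made the values is not given in the sources used here. Samples were grouped by title. Of 22690 probe sets, 64 AFFX controls were left out and 22626 tested. The platform annotation gave 1 symbol to 20380, several to 691 and none to 1555; 20351 matched RefSeq (GRCm38.p6), which changed 0 symbols. Left out were 8 probe sets that share a member's symbol with another gene. Among chosen probe sets, 10 end in _s_at and 6 in _x_at and can match several transcripts.

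limma 3.58.1 (R 4.3.3) fitted 1 mean per group over 12 arrays, with moderated variances and an intensity trend, two-sided tests and Benjamini-Hochberg adjustment over all probe sets at 0.05. Replicates were pools, so p-values reflect spread among pools, and 3 arrays a group limit precision. Members, gene lists and roles were chosen with earlier results of these data known. Named genes were all that passed, the lowest p per complex between genotypes and with quercetin, the extremes of each comparison, a fixed set of subunits, and up to 4 per other list. Some complex I genes were added after their values were seen, as stated where they are named. The fit was tested on simulated data with 200 of 22626 probe sets changed in each of 3 runs. It recovered 81.3% at 0.5 and 99% at 1 log2 unit for genotype averaged over diets, and 49% and 92.7% on the control diet. False calls averaged 10.7 and 10 a run in these comparisons. Sizes below 0.5, and the quercetin and interaction comparisons, were not simulated. Alternatives were a filter on low values, quantile normalization, other variance priors, array weights, a replicate block, only the groups compared, other probe set choices and leaving out each array. Figures used matplotlib 3.10.9.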

Additional observations from a re-analysis of the deposited data

How the results depend on the processing

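Quantile normalization moved most group medians. For genotype averaged over diets 4 members passed, and the medians were -0.017 for all members and 0.0073, -0.022, -0.070, -0.040 and -0.10 for complexes I to V. On the control diet 0 passed, with -0.054 for all members and -0.033, -0.054, -0.084, -0.068 and -0.10 for complexes I to V. On the quercetin diet 1 passed, with 0.0069 for all members, 0.014, -0.048, -0.067 and -0.050 for complexes I, II, III and V, and 0.18 for the factors. For quercetin it gave -0.12 for complex IV in wild type, 0.011 for all members, 0.037 for complex I and -0.033 for complex III in POR-null, and -0.021 for all members and -0.0042 for complex I averaged over genotypes. The interaction of complex IV became 0.10. The median of all genes moved less. It was -0.023 as deposited and -0.021 after quantile normalization for genotype averaged over diets, and 0.0007 and -0.0039 for the interaction. The cause was not tested.

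The control-diet call of Atp5pb was lost, leaving 0, without the intensity trend, with only the groups compared, with the mean of a gene's probe sets and without _x_at and _s_at probe sets. On the quercetin diet 5 members passed with array weights and 1 without _x_at and _s_at probe sets. Every quercetin and interaction count was 0 under all alternatives run.

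Leaving out each array in turn, the members called ranged from 0 to 2 on the control diet, 0 to 3 on the quercetin diet and 2 to 9 averaged over diets. Medians ranged, for quercetin in wild type, from -0.063 to 0.049 in complex III, -0.11 to -0.036 in IV, -0.051 to 0.011 in V and 0.014 to 0.080 for the factors. For quercetin in POR-null the factors ranged from 0.10 to 0.20. For the interaction complex III ranged from -0.030 to 0.069, IV from 0.029 to 0.10 and the factors from 0.038 to 0.15. For genotype on the control diet complex I ranged from 0.026 to 0.076 and III from -0.048 to 0.054. On the quercetin diet complex I ranged from 0.079 to 0.16 and the factors from 0.18 to 0.30, and averaged over diets the factors ranged from 0.14 to 0.22.

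The values did not settle whether the pool numbers of the titles paired the arrays. Deviations of same-numbered arrays correlated at -0.18 to 0.24 over 18 pairs, with a median of 0.05 and 5 of them over 0.1. Over 36 pairs with different numbers the range was -0.22 to 0.22, with a median of -0.01 and 6 over 0.1. Of 12 arrays, 6 correlated best with their own number. With the pool number as a replicate block, 6 members passed averaged over diets, 5 higher, all among the 7 above, and Cox8b lower, with 1 on the control diet and 2 on the quercetin diet.

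Of the 72 other probe sets of members, 59 were above the median level. Among these 59, 34 to 50 had the same sign as the chosen one across comparisons, with a largest gap of 0.45. The chosen probe set of Cox7c had a mean of 4.60, so this subunit was measured near the low end of the scale.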
